A study of Homo sapiens with 6 samples.

Results

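NEDD9 and the adaptor proteins of focal adhesions were followed in the parental human breast cancer line MDA-MB-231 and in its isolates S1a and S1b, with 2 Affymetrix arrays for each of the 3 populations. The members were 10 genes, taken with every probe set (a set of probes designed against 1 transcript) that the array's annotation assigns to them alone: NEDD9, BCAR1, PXN, VCL, TLN1, ZYX, PTK2, ILK, PARVA and TNS1. No probe set is annotated to BCAR1 alone in the table used here, so it was not analysed. The other 9 genes had 20 probe sets, of 19064 that name a single gene and 11963 genes in all. NEDD9 was chosen because its signal had been seen to be lower in the isolates than in the parental line, and the adaptors were listed around it. The differences of all members from the parental line are therefore given as a description, without p-values, and only S1b against S1a was tested.

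MDA-MB-231 is an established triple-negative line with mesenchymal traits that is much used in work on metastasis. The labels call S1a and S1b isolated seeder cell populations 1 and 2, and in published work seeder cells are tumour cells that return from the circulation to a tumour. All cells were untreated and grown subconfluent in DMEM with 10% serum. Each isolate is 1 population, no isolate of other cells was measured, and the array titles speak of biological replicates but name no cultures, so the spread behind each p-value may be technical. Isolation as such and seeding ability cannot be told apart.

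Focal adhesions are the sites where integrins join the extracellular matrix to the actin cytoskeleton. Talin binds the integrin tail and actin, vinculin strengthens that link, and a layer of adaptors around the focal adhesion kinase passes adhesion signals on to the cytoskeleton. NEDD9, also called HEF1 or CAS-L, is a scaffold of the CAS family: its SH3 domain binds focal adhesion kinase, and its phosphorylated tyrosines recruit CRK proteins and, through them, DOCK1 and RAC1. It is known for promoting cell migration, and it is among the genes reported high in lung-metastatic derivatives of this line.

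The stretches upstream of the NEDD9 starts are shown because NEDD9 was the member whose isolate signal lay furthest below the parental one. RefSeq (GRCh38.p14) places NEDD9 on the minus strand of chromosome 6 with 3 start windows, of which 2 overlap; the outermost starts are 149680 bases apart. Each line gives the 250 bases before a start, 5′ to 3′ on the gene's strand, with GC boxes in capitals.

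NEDD9 upstream start, chr6:11382349-11382598: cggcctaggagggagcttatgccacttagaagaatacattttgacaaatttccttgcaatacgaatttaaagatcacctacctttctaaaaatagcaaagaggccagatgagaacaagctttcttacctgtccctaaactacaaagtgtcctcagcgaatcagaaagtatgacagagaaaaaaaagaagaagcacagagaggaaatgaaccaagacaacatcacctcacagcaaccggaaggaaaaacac
NEDD9 downstream start, chr6:11232669-11232918: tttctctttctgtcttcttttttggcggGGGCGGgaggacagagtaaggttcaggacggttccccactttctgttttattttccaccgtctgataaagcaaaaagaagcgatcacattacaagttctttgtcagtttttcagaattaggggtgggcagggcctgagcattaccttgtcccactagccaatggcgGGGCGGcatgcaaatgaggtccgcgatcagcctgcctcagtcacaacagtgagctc

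The upstream stretch had a G and C content of 40.4% and no GC box (GGGCGG, or CCGCCC on the other strand), while the downstream stretch had 50% and 2 GC boxes. Of 35116 such 250-base stretches of RefSeq genes, 42.6% held a GC box, and their median G and C content was 58%. An AP-1 site (TGANTCA), which 6.57% of all stretches held, a TEAD site (GGAATG or CATTCC, 11.9%) and a CArG box (1.16%) were searched on both strands and were not in any of the 3 NEDD9 stretches. These matches only describe the letters, and the arrays do not tell which start was used.

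Signals were scaled alike, to a trimmed mean of 500.2 units on each array, and medians lay between 87.6 and 106 units. A signal below 44 units, the 40th percentile of probe set means, is treated as dim here, and a ratio to a dim mean is given against 44 as a lower bound ("at least"). Of markers of this line, VIM, CD44, CAV1, AXL and EGFR were at 1856 units or higher on every array. PGR and CDH1 were below 44 on all 6 arrays, ESR1 and ERBB3 reached 82.1 and 68.5, but the epithelial marker EPCAM lay between 347 and 495. Of 12 markers of leukocytes, endothelium and fibroblasts, 4 were below 44 on every array, and their summed mean signal was 495 units in parental, 400 in S1a and 279 in S1b. Their part in the results below was not tested.

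NEDD9 was lower in both isolates than in the parental line with each of its probe sets. With the brighter one (202149_at) the signal was 403 and 401 units in parental, 83.3 and 63.1 in S1a and 55.6 and 47.5 in S1b. The parental arrays were nearly equal, all 4 isolate arrays lay far below them, and both S1b arrays lay below both S1a arrays, the lowest of them just above 44 units. The mean signal was 402 ± 1.53 in parental, 73.2 ± 14.3 in S1a and 51.6 ± 5.75 in S1b (SD, n = 2), a ratio of 5.49 between parental and S1a and of 7.79 between parental and S1b. On the log2(signal + 3.942) scale, on which all later differences are given, the mean of both isolates was lower by 2.64 ± 0.21 (SE). Among the 7791 genes with a mean signal above the filter, NEDD9 ranked 53rd from the lowest in this difference, which describes how it was chosen. In RNA pooled over all cells of a culture, fewer cells with NEDD9 and less NEDD9 RNA per cell cannot be told apart.

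The dimmer NEDD9 probe set (202150_s_at) gave 293 and 139 units in parental, 45.4 and 73.5 in S1a and 40.5 and 64.2 in S1b. The isolate arrays again lay below both parental arrays, but the parental arrays differed from each other and the isolates overlapped. The log2 difference of the isolates was -1.82 ± 0.35, smaller in size than with the brighter probe set. Both NEDD9 probe sets thus put parental above the isolates, and S1a and S1b were parted only by the brighter one.

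The largest difference in the other direction belonged to tensin 1 (TNS1), which binds integrin tails and actin in the long fibrillar adhesions. Its brightest probe set (221748_s_at) was at 31.4 and 3.4 units in parental, 113 and 100.2 in S1a and 146 and 152 in S1b. Both parental values were dim, and the isolate arrays lay above them without overlap, S1b above S1a. The isolate mean of 128 units was at least 2.9-fold higher (at least 2.42-fold in S1a and at least 3.39-fold in S1b). The fitted log2 difference of 3.01 ± 0.53 depends on the pseudocount and on the parental arrays: it was 4.15 without parental replicate 1, 1.88 without parental replicate 2, 1.74 with a pseudocount of 32 and 1.63 with the mean of its probe sets.

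Of the other TNS1 probe sets, 3 were also higher on every isolate array than on both parental arrays, with parental means of 10.5 (218864_at), 41.3 (221246_x_at) and 8.67 units (221747_at). Their isolate means were 67.5, 69.5 and 45.7 units, at least 1.53-fold, 1.58-fold and 1.04-fold higher. The last of these did not pass the filter, nor did 218863_s_at, which lay between 1.25 and 6.75 units on all arrays and gives no order. TNS1 was thus dim in parental and at a low signal in the isolates with 4 of its 5 probe sets, and the bounds say no more than that.

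**Figure D1:**
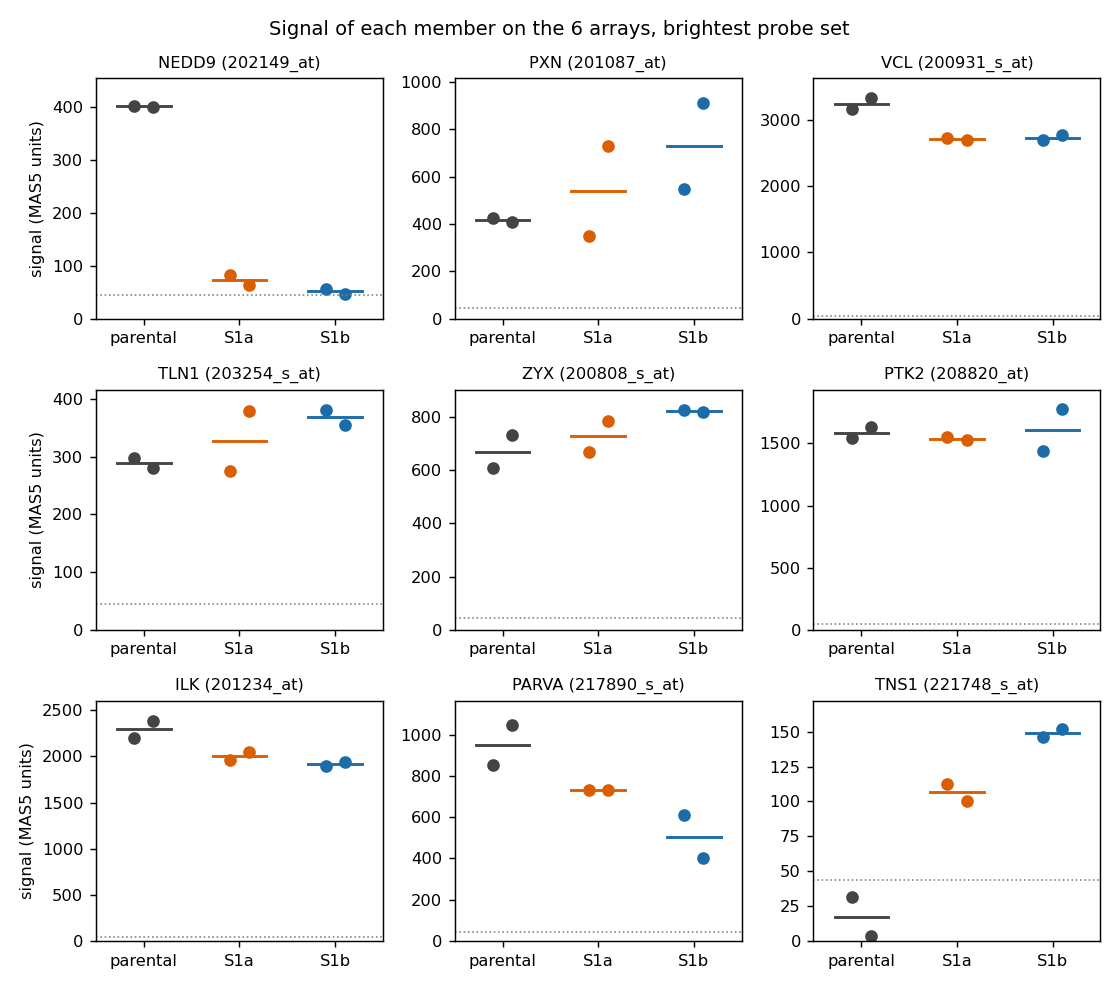
Signal in MAS5 units (vertical axes, from 0, a separate scale per panel) of the brightest probe set of each of the 9 measured members; points are the 2 arrays of parental, S1a and S1b, horizontal lines their means, and the dotted line marks 44 units. NEDD9 stood at 402 units in parental and 73.2 and 51.6 in the isolates, TNS1 was dim in parental only, and the other panels show much smaller gaps.

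ILK, PARVA and the LIM protein PINCH form a complex that ties integrins to actin, in which ILK is a pseudokinase and PARVA (alpha-parvin) carries the actin-binding domains. For ILK (201234_at) the signal was 2201 and 2387 units in parental, 1967 and 2052 in S1a and 1893 and 1942 in S1b. The groups did not overlap, in the order parental, S1a, S1b, but the log2 difference of the isolates from parental was only -0.22 ± 0.073. For PARVA the brightest probe set (217890_s_at) gave 854 and 1047 units in parental, 734 and 732 in S1a and 612 and 400.0 in S1b. These also lay in the order parental, S1a, S1b without overlap, with a log2 difference of -0.37 ± 0.18 for S1a and -0.93 ± 0.18 for S1b.

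The PARVA probe sets disagreed. In the one without shared-probe suffix that was brighter (213675_at), S1a was higher than parental by 0.41 ± 0.20 and S1b stood at -0.0021, with arrays between 144 and 234 units and parental inside the range of the isolates. The dimmest (215418_at) had parental arrays at 120 and 49.7 units and isolate arrays between 25.4 and 51.3, so that the groups overlapped, with an isolate difference of -0.96 ± 0.42. The isolate difference was thus negative with 2 of the 3 PARVA probe sets, and parental lay apart from the isolates with 217890_s_at only.

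Talin 1 and vinculin link integrins to actin. The TLN1 probe set (203254_s_at) gave 298 and 281 units in parental, 275 and 379 in S1a and 380.2 and 356 in S1b. S1a spanned the parental values and nearly all of the S1b range, and the isolate difference was 0.25 ± 0.15. VCL (200931_s_at) gave 3168 and 3330 units in parental, 2724 and 2707 in S1a and 2702 and 2772 in S1b. Both isolates lay below parental and overlapped each other, with a log2 difference of -0.25 ± 0.069. The other VCL probe set (200930_s_at) had parental arrays at 21.3 and 19.0 and isolate arrays between 22.3 and 50.8 units, so it lay the other way at a dim level and did not pass the filter.

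Paxillin (PXN) docks focal adhesion kinase and vinculin, focal adhesion kinase itself is the product of PTK2, and zyxin (ZYX) is a LIM protein of mature adhesions that recruits ENA and VASP. For PXN the brighter probe set (201087_at) gave 424 and 407 units in parental, 350.0 and 730 in S1a and 546 and 911 in S1b. The array of replicate 2 was the higher one in both isolates, and S1a overlapped both other populations. The other PXN probe set (211823_s_at) was at 216 and 137 units in parental and between 98.7 and 162 in the isolates. The isolate difference was 0.52 ± 0.27 with the brighter and -0.51 ± 0.23 with the dimmer probe set, so these arrays give no common direction for PXN.

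PTK2 (208820_at) gave 1544 and 1629 units in parental, 1550 and 1528 in S1a and 1440 and 1774 in S1b. All 3 populations overlapped, and the isolate difference was -0.016 ± 0.093. With the other PTK2 probe set (207821_s_at), whose arrays ranged from 506 to 665 units, it was -0.057 ± 0.12. ZYX (200808_s_at) gave 607 and 731 units in parental, 667 and 786 in S1a and 825 and 817 in S1b. S1b lay above the other populations, which overlapped, with differences from parental of 0.12 ± 0.12 for S1a and 0.30 ± 0.12 for S1b. The other ZYX probe set (215706_x_at) gave -0.075 ± 0.12 and 0.11 ± 0.12.

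**Figure D2:**
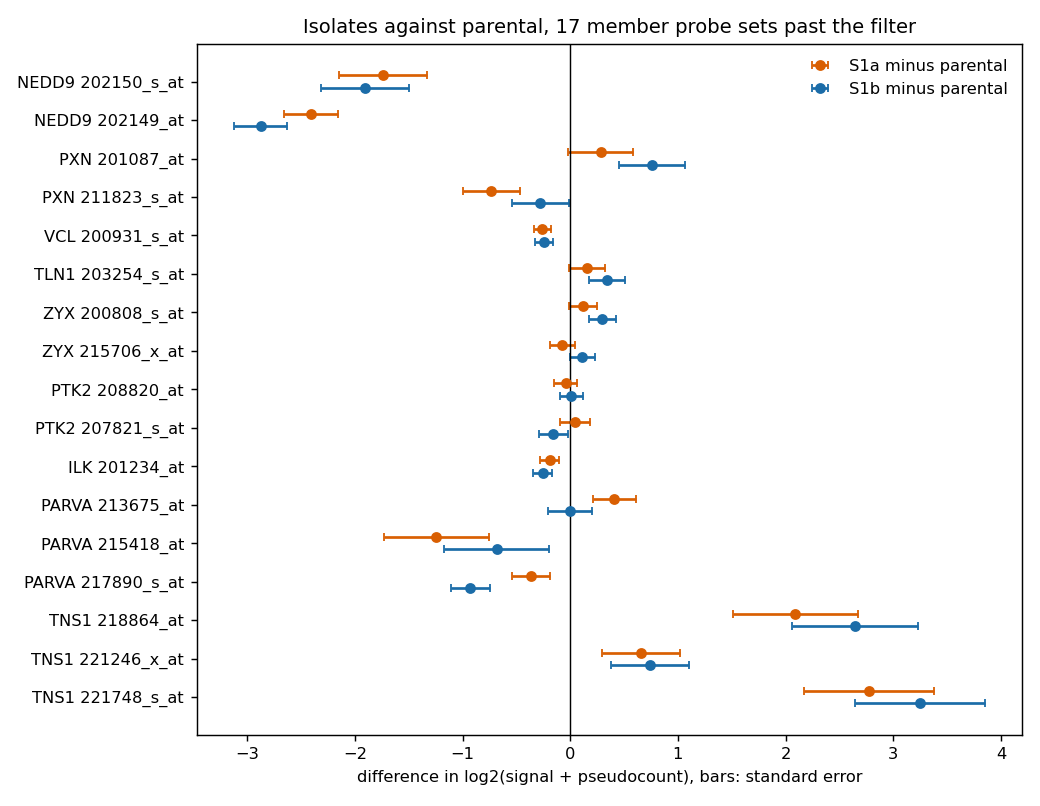
Difference of S1a (orange) and S1b (blue) from parental in log2(signal + 3.942), horizontal axis, for the 17 member probe sets past the filter; points are differences of 2 arrays against 2 and bars their standard errors. Both NEDD9 probe sets lie left of 0 and the 3 TNS1 probe sets right of it, while those of PXN and of PARVA lie on both sides. The 3 TNS1 probe sets passed the filter only through the isolate arrays, where they were high.

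Set against the parental line, then, the members split: NEDD9 and TNS1 stood more than 2-fold from it in opposite directions, as did 9.73% of all genes in either direction, and the other 7 genes lay between -0.65 and 0.52. Arrays of isolates and parental did not overlap for 4 members below parental (NEDD9, PARVA, VCL and ILK) and 1 above (TNS1), beside 29.7% and 27% of all genes. The members were chosen from this contrast and nothing is read from these counts. The small differences depend on the scaling: with each array centred on its median, those of VCL and ILK shrank to -0.076 and -0.047 and PTK2 turned to 0.16, while NEDD9 stood at -2.46, PARVA at -0.47 and TNS1 at 3.19. That setting also moved the median difference of all genes from -0.026 to 0.15. With quantile normalization the VCL and ILK differences grew in size, to -0.33 and -0.29. S1a and S1b were set against the same parental arrays, so that the likeness of their differences is partly shared.

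Between the isolates, no member was shown to differ. At a limma adjusted p below 0.05, 0 of 9 members passed for S1b against S1a, beside 1.89% of all 7791 genes (147 genes, with 1.42% of all genes lower in S1b), and 1 member and 14.9% of all genes had an unadjusted p below 0.05. With every probe set in the fit, 0 of 17 member probe sets passed, beside 1.31% of 11860. The number of genes called fell in each fit without 1 of the isolate arrays and rose in each fit without 1 of the parental arrays. In each of these, 0 members passed.

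PARVA came nearest, lower in S1b by 0.56 ± 0.18 on the log2 scale (95% interval -0.96 to -0.16, limma adjusted p = 0.172), and both S1b arrays lay below both S1a arrays. The size rested on S1b replicate 2: it was -0.26 without that array (limma adjusted p = 0.564), -0.87 without S1b replicate 1 (0.0657) and -0.14 with the mean of the PARVA probe sets (0.797). Of the other PARVA probe sets, 213675_at gave -0.41 ± 0.20 and 215418_at, higher in S1b, 0.56 ± 0.49. NEDD9 was lower in S1b by 0.47 ± 0.25 (interval -1.02 to 0.084, limma adjusted p = 0.418), also without overlap of the arrays, so S1b and S1a were not shown to hold different levels. For VCL (-0.17 to 0.19), ILK (-0.26 to 0.12), PTK2 (-0.18 to 0.29), ZYX (-0.096 to 0.46) and TLN1 (-0.19 to 0.56), a 1.5-fold difference lay outside the interval. For NEDD9, PXN (-0.21 to 1.16) and TNS1 (-0.89 to 1.84), a 2-fold difference lay inside. Without overlap, S1b was below S1a for 3 members and above it for 2, beside 23.9% and 25.7% of all genes.

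**Figure D3:**
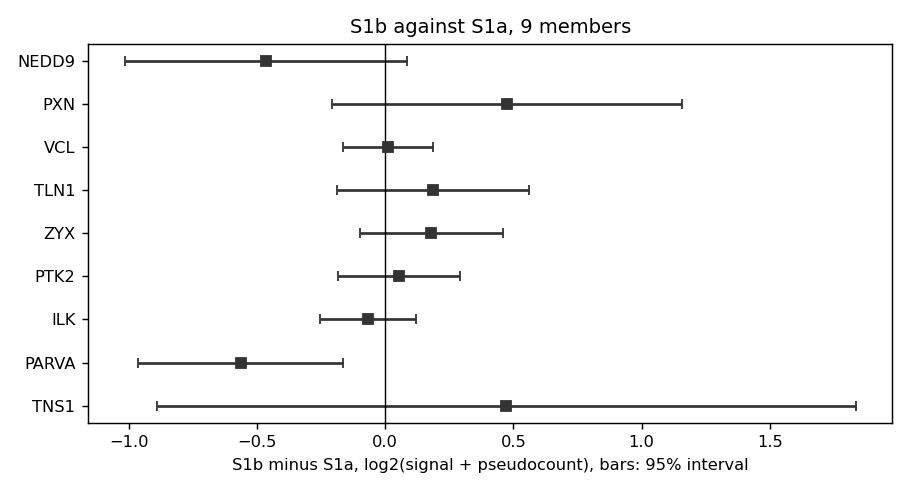
Difference of S1b minus S1a in log2(signal + 3.942) for the 9 members, horizontal axis; squares are limma estimates from 2 arrays each and bars 95% intervals. The interval of PARVA alone leaves out 0, at an adjusted p of 0.172 over all genes by limma, and those of PXN and TNS1 are the widest.

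The pattern of NEDD9 over the 6 arrays was close to that of many genes. After each gene was centred on its own mean, the 5 genes at the smallest Euclidean distance were S100A2 (a calcium-binding protein, 0.253), KRT7 (keratin 7, 0.362), LITAF (0.429), LY6E (0.500) and GBP2 (an interferon-induced GTPase, 0.513), against a median distance of 3.11 over 7790 genes. S100A2, for example, gave 2595 and 2550 units in parental, 505 and 481 in S1a and 376 and 297 in S1b. Over the 6 arrays 570 genes had a Pearson r of at least 0.95 with NEDD9. With 3 populations on shared arrays, any gene well above its isolate level in parental scores high on this measure. The nearest other member lay at a distance of 2.35.

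**Figure D4:**
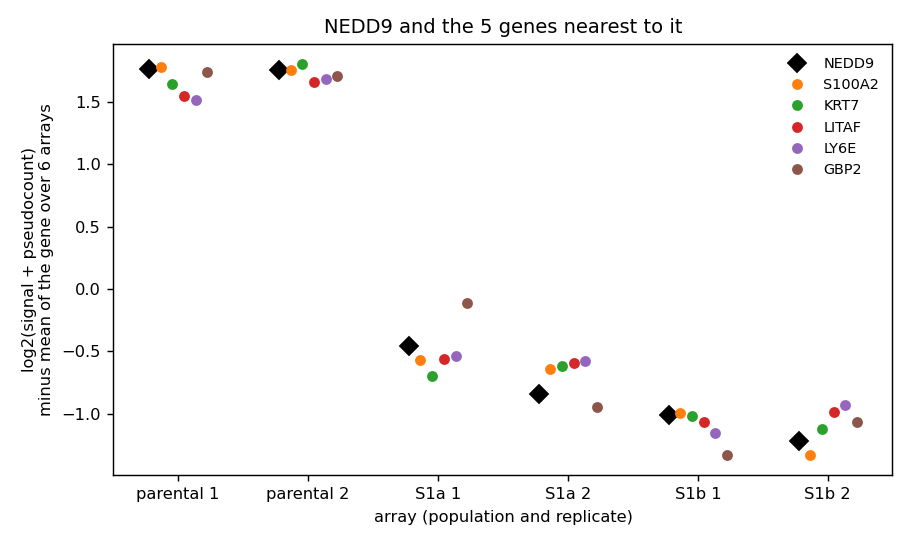
log2(signal + 3.942) minus the gene's mean over the 6 arrays, vertical axis, for NEDD9 (black diamonds) and the 5 genes nearest to it (circles), by array. All 6 genes were high on both parental arrays and low on the 4 isolate arrays, with distances from NEDD9 of 0.253 to 0.513.

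The other genes of these adhesions moved in both directions in the isolates. The lists were made from known roles, members left out, but with earlier results of these data known. These genes were tested against parental with limma over all 7791 genes, and the shares called are given as a description. Of 76 tested genes of 3 focal adhesion lists together, 21 rose, 18 fell and 37 did not pass, which is 51.3% called beside 46.2% of all genes (22.7% higher and 23.5% lower). Their median change was 0.058, beside -0.026 over all genes. Of the 76 genes, 4 passed with a change of 2-fold or more, a smaller share than the 714 of all 7791. The 4 include ARHGEF6, which passed the filter only through its parental arrays. With each array centred on its median, the median change of all genes went from -0.026 to 0.15, the split of all calls from 49.2% to 69.8% higher, and the list's counts to 30 up and 13 down.

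Among adaptors and scaffolds, 10 of 28 tested genes rose, 7 fell and 11 did not pass (60.7% called beside 46.2% of all genes, median 0.16). Leupaxin (LPXN), a paralog of paxillin, rose by 0.97 ± 0.093 (limma adjusted p = 2.75e-05), from 627 and 536 units on the parental arrays to 1346 and 1334 in S1a and 1014 and 925 in S1b. BCAR3, an adaptor that binds CAS proteins including NEDD9, rose by 0.81 ± 0.072 (limma adjusted p = 1.7e-05), from a mean of 1507 units to 2735 in S1a and 2560 in S1b. TGFB1I1 (Hic-5), another paxillin paralog, rose by 0.79 ± 0.12. The adhesion and cortex protein KANK1, the SH2/SH3 adaptor NCK2 and the zyxin relative LPP fell, with changes of -0.98 ± 0.17, -0.84 ± 0.094 and -0.79 ± 0.12. SORBS2, a vinculin-binding adaptor, fell by 0.77 ± 0.23 (limma adjusted p = 0.0204), but its call ended without parental replicate 1 (-0.48, limma adjusted p = 0.181), S1a replicate 2 (0.0562) or S1b replicate 2 (0.0515).

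Among kinases, phosphatases and GTPase regulators, 6 of 26 tested genes rose, 6 fell and 14 did not pass (46.2% called, the same share as of all genes, median 0.054). ARHGEF28, a guanine nucleotide exchange factor that binds focal adhesion kinase, rose by 1.29 ± 0.097 (limma adjusted p = 6.02e-06), from 268 and 278 units on the parental arrays to between 629 and 723 on the isolate arrays. The SRC family kinase FYN and the phosphatase PTPN11 (SHP2) rose by 0.61 ± 0.082 and 0.56 ± 0.069; of the 5 PTPN11 probe sets, 1 above the filter had the opposite sign. ARHGEF6, an exchange factor for RAC1 and CDC42, fell from 116 and 79.5 units to between 5.3 and 37.5, at least 2.22-fold. The kinase ABL1 and the GTPase-activating protein ARHGAP26 fell by 0.65 ± 0.11 and 0.82 ± 0.20, the latter without a call when parental replicate 2 was left out (limma adjusted p = 0.0554). The GTPase CDC42 fell by 0.89 ± 0.13 with its brightest probe set (208727_s_at), and 1 other probe set had the opposite sign.

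Among actin linkers and actin regulators, 5 of 22 tested genes rose, 5 fell and 12 did not pass (45.5% called beside 46.2% of all genes, median 0.0041). Caldesmon (CALD1) and the myosin light chain MYL9 led the falls with -1.15 ± 0.085 and -1.11 ± 0.084 (limma adjusted p = 5.87e-06 and 6.2e-06). CALD1 went from 3039 and 2907 units on the parental arrays to between 1146 and 1471 on the isolate arrays. Supervillin (SVIL) and palladin (PALLD) fell by 0.98 ± 0.14 and 0.39 ± 0.084. ENAH, a member of the ENA and VASP family that zyxin recruits, rose by 0.77 ± 0.14 (limma adjusted p = 0.00126), from 360 and 258 units to 401 and 415 in S1a and 651 and 684 in S1b. PDLIM5 rose by 0.35 ± 0.077, with 1 other probe set above the filter of opposite sign. VASP rose by 0.45 ± 0.16 (limma adjusted p = 0.0387), although its arrays overlapped between isolates and parental. That call ended without parental replicate 2 (0.294), S1a replicate 1 (0.11), S1b replicate 1 (0.0667) or S1b replicate 2 (0.106).

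Of 9 tested partners of NEDD9 outside adhesions, 2 rose, 2 fell and 5 did not pass (44.4% called beside 46.2% of all genes, median 0.0018). The mitotic kinase AURKA, which NEDD9 binds and activates, rose by 0.45 ± 0.085 (limma adjusted p = 0.00193), and the splicing protein TXNL4A by 0.36 ± 0.084. ID2, an inhibitor of helix-loop-helix factors, fell at least 2.18-fold, from 118 and 73.6 units to between 22.1 and 45.5. Its isolate means of 26.4 and 35.2 units were dim, so ID2 too passed the filter only through its parental arrays. SMAD3, a transducer of TGF-beta signals, fell by 0.40 ± 0.12 (limma adjusted p = 0.0236), a call that ended without parental replicate 2 (0.139), S1a replicate 1 (0.0698) or S1b replicate 1 (0.0663).

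Other settings ended some of these list calls. With the mean of all probe sets of a gene, SORBS2, CDC42, ARHGAP26, SVIL, PDLIM5 and TXNL4A no longer passed (limma adjusted p from 0.0706 for ARHGAP26 to 0.425 for SORBS2). With shared-probe suffixes left out, AURKA and TXNL4A no longer passed (0.414 and 0.923) and CDC42 turned to 0.31 (0.35). Median centring ended the calls of PALLD (0.0817) and SMAD3 (0.183), no variance trend those of ARHGEF6 (0.0522), VASP (0.0953) and SMAD3 (0.0504), no filter those of SORBS2 (0.0504) and VASP (0.0654), and array weights that of VASP (0.0567).

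**Figure D5:**
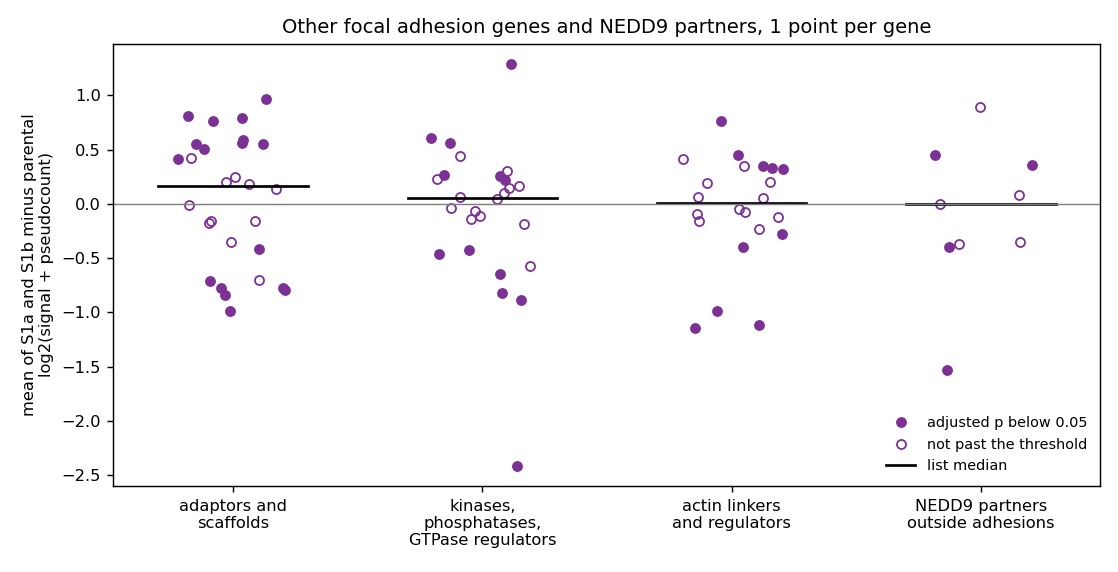
Mean of S1a and S1b minus parental in log2(signal + 3.942), vertical axis, for the tested genes of the 3 focal adhesion lists (28, 26 and 22 genes) and the 9 NEDD9 partners; filled points passed a limma adjusted p of 0.05 and bars are list medians. Points lie on both sides of 0 in every list, and medians run from 0.0018 to 0.16.

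For S1b against S1a, 0 of the 76 focal adhesion genes and 0 of the 9 partners passed with limma, while 15 and 2 had an unadjusted p below 0.05, beside 14.9% of all genes. Nearest to the threshold were ENAH, higher in S1b by 0.70 (limma adjusted p = 0.0593), and LPXN, lower in S1b by 0.47 (limma adjusted p = 0.0654), named after their values were seen. Without parental replicate 1 and without parental replicate 2, the same 6 genes passed: CSRP1, ENAH, FHL2, LPXN, PFN1 and TPM1.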

How the data were processed

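Total RNA was labelled with biotin and hybridised to 6 arrays, 2 per population. The authors deposited 1 intensity per probe set and array on a linear scale, from MAS5, a tool that the submitters' processing notes name without a version. Detection calls were not analysed here, so dim signals could not be called absent. Of 22277 probe sets, 62 controls, 1043 with several symbols and 2108 with none were left out. Symbols were updated by gene identifier in RefSeq (GRCh38.p14; 19052 of 19064 matched). A gene took its probe set with the highest mean.

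log2(signal + 3.942), the pseudocount being the 10th percentile of signals, was fitted with limma 3.58.1 in R 4.3.3 (3 group means, variance trend, Benjamini-Hochberg adjustment) after a filter at the 40th percentile. The number of arrays limits the precision. The fit was tested on simulated data. Named list genes were the 7 largest called changes per list against parental and the 3 largest between isolates. Members and lists were chosen with earlier results of these data known.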

Additional observations from a re-analysis of the deposited data

How the results depend on the processing

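Of 10 alternative settings and 6 fits with 1 array left out, none gave a called member or member probe set for S1b against S1a. The genes called between isolates went from 147 to 320 with array weights, 60 with the mean of probe sets, 63 with no filter, 58 with shared-probe suffixes left out, 4 with no variance trend and 64 with the replicate block, and ranged from 22 to 348 with 1 array left out. Focal adhesion genes called between isolates went from 0 to 4 with array weights, 2 with a filter at the 60th percentile, and 1 each with median centring and a pseudocount of 32, and ranged from 0 to 6 with 1 array left out. Against parental, leaving out shared-probe suffixes gave 2055 called genes among 4767 and 21 focal adhesion genes among 43, where fewer were tested. Signs turned against parental for VCL with the mean of probe sets (0.30), PARVA (0.20) and CDC42 (0.31) with suffixes left out, and PTK2, near 0, with median centring (0.16) and without parental replicate 2 (0.023) or S1b replicate 1 (0.059), and between isolates for PTK2 (-0.072 with the mean of probe sets, -0.095 without S1b replicate 2), PXN (-0.049, against 1.00 at most with another array left out), TLN1 (-0.043, at most 0.41) without S1a replicate 1, and VCL (-0.0073, at most 0.029) without S1b replicate 2; the cause was not tested. NEDD9 stayed between -2.74 and -2.21 against parental. Of 381 values of the named list genes under these settings, 353 kept their direction and side of the threshold. Settings in which a gene was not tested, such as ARHGEF6 without either parental array, are not among the 381. Same-numbered arrays did not deviate together (r from -0.067 to -0.0046 across genes), so numbers were not taken as pairs. With the replicate block 0 members passed between isolates, as in the main fit, so there was no member call to lose. Array number and dim signals limit what could be seen.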

Other observations

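Some partners of the members were looked at for their role, chosen after values had been seen. FERMT2 (kindlin 2), which activates integrins together with talin and binds ILK, rose in the isolates by 0.55 ± 0.087 on the log2 scale (limma adjusted p = 0.000596), from a mean of 2414 units in parental to 3420 in S1a and 3691 in S1b. CRKL, an adaptor that binds phosphorylated CAS proteins, rose by 0.50 ± 0.083 (limma adjusted p = 0.000821), from 584 units to 774 and 889. DOCK1, the exchange factor that CRK proteins bring to CAS proteins, did not pass (0.30 ± 0.23, limma adjusted p = 0.304). The GTPase RAC1, named with DOCK1 in the outline of NEDD9 above, was lower in the isolates (-0.47 ± 0.096, limma adjusted p = 0.00298). RSU1, which binds PINCH, did not pass (0.20 ± 0.081, limma adjusted p = 0.0624). SRC did not pass the filter, with 63.2 units in parental and 24.2 and 16.7 in the isolates. Of the remaining CAS family, EFS had means of 7.21, 21.7 and 20.4 units and CASS4 of 16.03, 3.45 and 2.88 units in parental, S1a and S1b, all dim, so no order is given for them.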
